A study of Mus musculus with 59 samples.

Results

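Atf4 is a transcription factor of the integrated stress response, and 9 genes known to respond to it or to sit in the metabolism it drives were followed with it across mouse pluripotent stem cell lines. When a kinase phosphorylates eIF2 alpha, because amino acids are short or unfolded protein builds up in the endoplasmic reticulum (ER), most translation slows while Atf4 protein is made more efficiently. Atf4 then binds C/EBP-ATF response elements and raises genes of amino acid synthesis and uptake, together with Ddit3, Trib3 and Chac1, which shape the end of the response. Because much of this control acts on translation, Atf4 RNA is not a direct reading of Atf4 protein.

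The 10 genes are Atf4; the effectors Trib3, Ddit3 and Chac1; the enzymes Asns, Psat1, Phgdh and Shmt2; and the amino acid transporter subunits Slc7a11 and Slc3a2. They were taken as a named list, and each was read from its brightest probe set, giving 10 of the 11807 genes measured. All 10 were measured on every array. Trib3, Ddit3, Asns, Chac1, Psat1, Slc7a11 and Slc3a2 each have 1 probe set that names a single gene, Phgdh and Atf4 have 2, and Shmt2 has 3. The brighter Phgdh probe set correlated with the other at r = 0.39 over the 59 arrays, and the brightest Shmt2 probe set with its others at 0.55 and 0.54. The brightest Atf4 probe set correlated with the dimmer one at -0.62, and the dimmer one lay above only 28.0% of probe sets. The Slc7a11 probe set lay above only 8.53% of all probe sets, so its differences were read near the bottom of the array.

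RNA of 59 lines was measured, with 1 array for each line and 1 line for each clone. Chimeric mice were made with ESC that carry an inducible cassette of Myc, Klf4, Oct4 and Sox2. The iPSC (induced pluripotent stem cell) clones came from animals labelled chimera 1, chimera 2, mouse 1 and mouse 2. By origin, they were 31 blood-derived clones (11 from haematopoietic stem cells, HSC, 11 from granulocyte-macrophage progenitors, GMP, and 9 from granulocytes), 11 clones from cells labelled PF or TTF, counted here as 1 fibroblast class, and 6 clones from mouse embryonic fibroblasts (MEF) of chimera 1. The blood and fibroblast origins came from 3 animals: mouse 1, mouse 2 and chimera 2, with PF clones in the mice and TTF clones in chimera 2 only. There were also 6 NT-ESC subclones from cloned blastocysts, their donor lines Adeno-2 (labelled Adeno-iPSC, of fetal liver origin), iPSC-7 and iPSC-15, and 4 clones of the targeted KH2 ESC line. All lines grew in serum and LIF on irradiated feeder MEFs, which were then removed by preplating.

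Pou5f1 was between 0.28 and 5.14, with a median of 4.68, and its lowest value was that of iPSC-32, a PF-derived clone of mouse 2. Sox2 was at least 3.73 and Nanog at least 4.18 in every line. Of the haematopoietic genes, Ptprc did not exceed -3.34 and lay on average above only 2.96% of probe sets, Spi1 was -2.56 to -0.83 and Lyz2 was -3.92 to 1.13, while the fibroblast collagen Col1a1 was 1.77 to 4.59. The arrays of NT-7, NT-8 and NT-9 stood apart, with a mean r of 0.891 to 0.940 to the others, against 0.978 to 0.989 for the other 56 lines. Values are log2 intensities centred near 0, and a probe set's level cannot be set against another gene's. In these bulk samples fewer cells of a type and less RNA per cell cannot be told apart, and p-values measure the spread between clones, which may be technical.

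The promoters of the 10 genes, 300 bases each around the annotated start (RefSeq, GRCm38.p6), were searched on both strands for TGATGNAA, the core of a C/EBP-ATF response element. It was found in Chac1, Trib3, Slc7a11 and Asns, 4 of 10 counted by gene, against 3.97% of 32851 promoters counted singly. Shown are the matching stretches of 3 of them, with the match in capitals and the gene's strand read 5′ to 3′, because Chac1 had the largest differences between origins in both mice, Slc7a11 carries 2 matches and Asns carries one just before its start.
Chac1, chr2:119351019-119351086, plus strand: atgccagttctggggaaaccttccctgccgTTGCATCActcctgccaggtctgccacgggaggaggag
Slc7a11, chr3:50443623-50443709, minus strand: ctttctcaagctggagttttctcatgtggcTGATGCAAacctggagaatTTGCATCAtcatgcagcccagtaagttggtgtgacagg
Asns, chr6:7693210-7693262, minus strand: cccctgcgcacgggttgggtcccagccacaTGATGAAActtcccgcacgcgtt
Counted from the start site, the Chac1 match begins at position -193 and the Asns match at -23. The Trib3 match begins at 15, after the start. By the same count, the ER stress response element was in 0 of 10 genes (0.119% of promoters). The antioxidant core TGACNNNGC was in 2, Phgdh and Asns (12.4% of promoters). A match describes letters in this window, and the absence of one says nothing about a factor.

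Blood-derived clones expressed more of most of the genes than fibroblast-derived clones. Of the 10 genes, 8 were higher and 1, Ddit3, was lower, with Slc7a11 not passing (limma, adjusted p under 0.05), while 49.7% of all genes passed in the same fit 28.1% higher and 21.6% lower. The median difference of the 10 genes was 0.19, against 0.0032 over all genes. Trib3, a pseudokinase that dampens Akt and Atf4 activity, was at -0.09, 1.12 and 1.48 in blood-derived clones (lowest, median, highest) and at -0.20, 0.14 and 1.35 in fibroblast-derived clones. The Trib3 ranges overlapped, and the difference was 0.61 (SE 0.12, adjusted p = 5.24e-05). Chac1, an enzyme that degrades glutathione, was at -0.21, 0.66 and 1.80 in blood-derived clones and at -0.80, 0.08 and 1.72 in fibroblast-derived clones. Its difference was 0.59 (SE 0.16, adjusted p = 0.00271), with overlap again. Shmt2, the mitochondrial enzyme that turns serine into glycine, was at 1.65, 1.86 and 2.16 in blood-derived clones and at 1.19, 1.43 and 1.69 in fibroblast-derived clones. Its ranges met only at their ends, and the difference of 0.41 (SE 0.042, adjusted p = 2.1e-10) ranked 184 among all genes by p.

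Slc3a2, the heavy chain of several amino acid exchangers, was at 3.89, 4.04 and 4.19 in blood-derived clones and at 3.61, 3.81 and 4.08 in fibroblast-derived clones, a difference of 0.26 (adjusted p = 4.03e-08). The other enzymes and Atf4 differed less. Asns, asparagine synthetase, was at 4.62, 4.93 and 5.08 in blood-derived clones, against 4.34, 4.62 and 5.03 in fibroblast-derived clones, a difference of 0.21 (adjusted p = 0.000597). Its ranges overlapped over most of their length. Phgdh, the first enzyme of serine synthesis, was 0.17 higher (adjusted p = 0.00233). Psat1, the second enzyme of serine synthesis, was 0.14 higher (adjusted p = 0.00232), and Atf4 itself was also 0.14 higher (adjusted p = 0.0069). Both are means over animals that differed, and within chimera 2 the differences were -0.02 for Psat1 and -0.11 for Atf4. Atf4 was at 4.61, 4.98 and 5.16 in blood-derived clones, against 4.54, 4.75 and 4.86 in fibroblast-derived clones. Ddit3 encodes CHOP, a transcription factor that promotes cell death under lasting stress. It was at 1.02, 1.64 and 2.09 in blood-derived clones, against 1.58, 1.72 and 2.26 in fibroblast-derived clones, a difference of -0.18 (adjusted p = 0.0222). Slc7a11, the cystine transporter, was at -3.70, -3.42 and -3.08 in blood-derived clones and at -3.74, -3.50 and -2.87 in fibroblast-derived clones (difference 0.06, adjusted p = 0.447).

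The list of fibroblast and feeder markers moved with the same split, with mean levels of 1.67 (1.18 to 2.68) in blood-derived clones and 2.47 (1.98 to 3.11) in fibroblast-derived clones, and 15 of its 16 measured genes were lower in blood-derived clones. Of 10 pluripotency markers 8 were higher in blood-derived clones, and of 12 haematopoietic markers 2 were higher and 3 lower; their part in the differences was not tested. With that mean as a covariate 4 of 10 genes and 15.4% of all genes passed: Trib3 at 0.83, Chac1 at 0.87, Shmt2 at 0.31 and Slc3a2 at 0.31. Chac1 did not pass without mouse 1 (0.31, adjusted p = 0.1795) or without mouse 2 (0.31, adjusted p = 0.2564). Without mouse 1, 6 of the 10 genes passed, against 45.2% of all genes, and without mouse 2, 4 did, against 36.7%. Atf4 depended on the probe set: the mean of its probe sets gave 0.04 (adjusted p = 0.453). Without iPSC-32, iPSC-33, iPSC-34 or iPSC-46, each left out alone, 8 of 10 genes passed and Ddit3 did not. Of all genes, 44.9% to 51.0% passed in these settings.

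**Figure D1:**
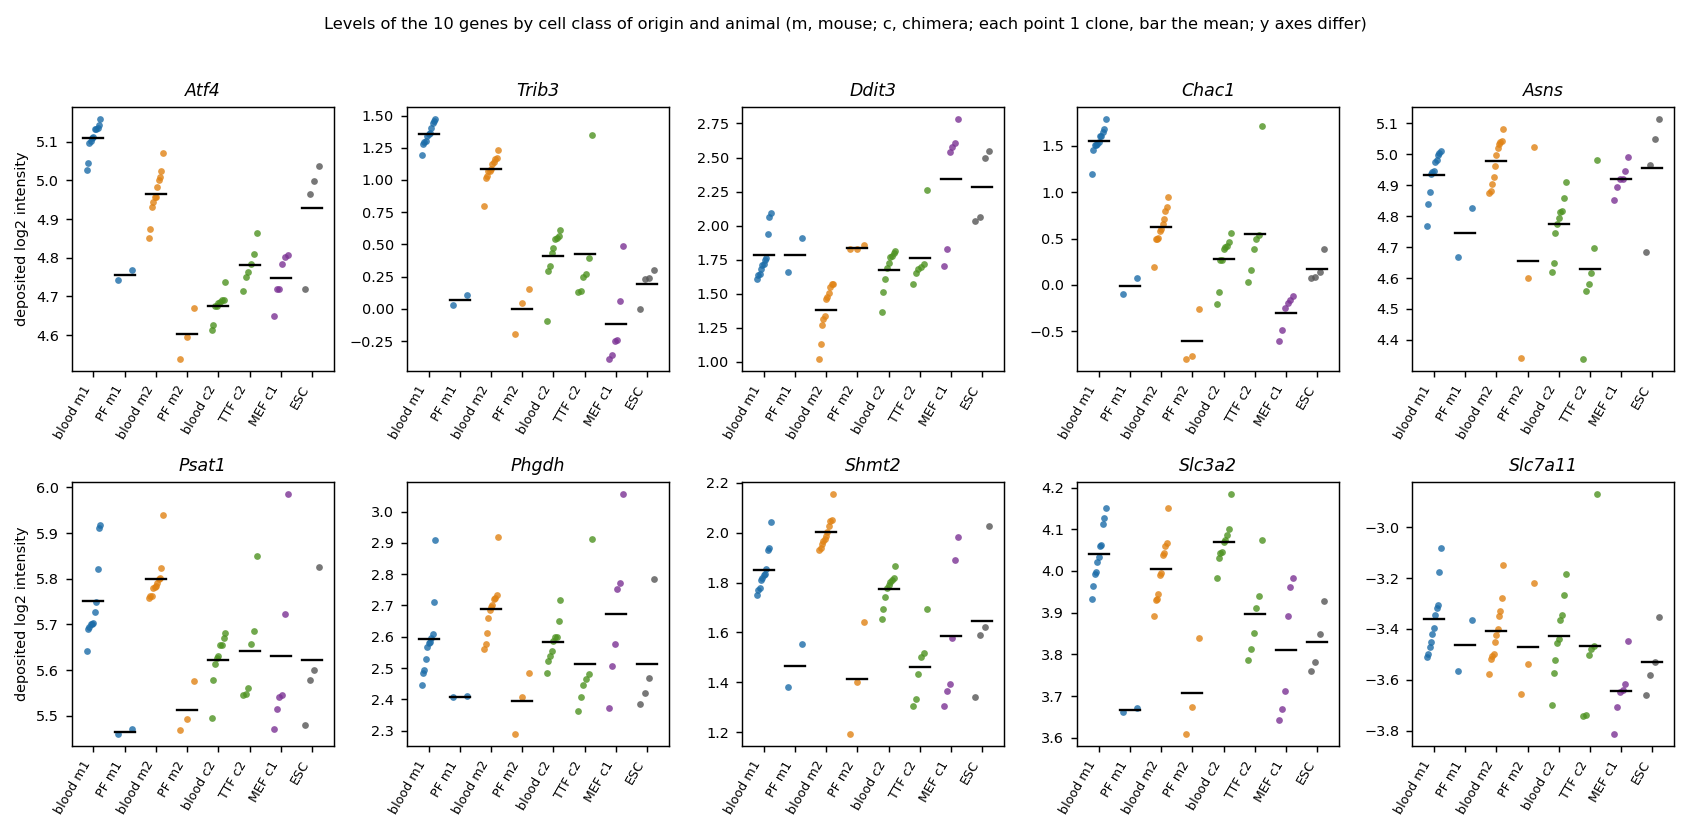
Deposited log2 intensity of each of the 10 genes by cell class of origin and animal, 1 point per clone with the mean as a bar and with the blood-derived clones left of the PF- or TTF-derived clones of the same animal. Trib3 and Chac1 lie clear of the PF-derived clones in mouse 1 and mouse 2, and the 9 blood-derived clones of chimera 2 overlap with the 6 TTF-derived clones.

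The difference between blood and fibroblast origin depended on the animal for 5 of the 10 genes (moderated F test of the interaction in limma), against 20.7% of all genes: Atf4, Chac1, Trib3, Psat1 and Shmt2. Atf4 ranked 3 among all genes by p (adjusted p = 3.04e-08), Chac1 ranked 13 (adjusted p = 3.67e-06) and Trib3 ranked 23 (adjusted p = 5.16e-06). PF clones were in the mice and TTF clones in chimera 2, so fibroblast label and animal cannot be told apart. In mouse 1 Trib3 was at 1.19, 1.36 and 1.48 in the 11 blood-derived clones, against 0.03 and 0.11 in both PF-derived clones, with no overlap (difference 1.29, SE 0.16). In mouse 2 it was at 0.80, 1.09 and 1.23 in the 11 blood-derived clones, against -0.20, 0.05 and 0.15 in the 3 PF-derived clones, again with no overlap (difference 1.08, SE 0.14). In chimera 2 it was at -0.09, 0.47 and 0.61 in the 9 blood-derived clones, against 0.13, 0.26 and 1.35 in the 6 TTF-derived clones, a difference of -0.01 (SE 0.11). Without iPSC-46, the highest TTF-derived clone, it was 0.17 (adjusted p = 0.0745).

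Chac1 and Atf4 followed the same pattern by animal. Chac1 was at 1.20, 1.54 and 1.80 in the blood-derived clones of mouse 1, against -0.10 and 0.08 in the PF-derived clones. In mouse 2 it was at 0.19, 0.60 and 0.95 in the blood-derived clones, against -0.80, -0.76 and -0.26 in the PF-derived clones. The Chac1 differences were 1.57 in mouse 1, 1.23 in mouse 2 and -0.28 in chimera 2 (-0.04 without iPSC-46). Atf4 was 0.35 higher in the blood-derived clones of mouse 1 and 0.36 higher in those of mouse 2, and the groups did not overlap in either mouse. In chimera 2 it was at 4.61, 4.68 and 4.74 in the blood-derived clones, against 4.72, 4.77 and 4.86 in the TTF-derived clones, so it was 0.11 lower on the log2 scale in blood-derived clones (difference -0.11, adjusted p = 0.0106) with only a narrow overlap. With the mean of the Atf4 probe sets the interaction did not pass (adjusted p = 0.071). Psat1 differed by 0.29 in both mice, without overlap, and by -0.02 in chimera 2, where it was at 5.50, 5.63 and 5.68 in blood-derived clones, against 5.55, 5.61 and 5.85 in TTF-derived clones.

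Shmt2 and Slc3a2 were higher in blood-derived clones in each of the 3 animals, while Asns and Phgdh passed in mouse 2 and, without iPSC-46, also in chimera 2 (Asns 0.22, adjusted p = 0.00893, and Phgdh 0.15, adjusted p = 0.0289). In mouse 1 Shmt2 was at 1.75, 1.83 and 2.04 in blood-derived clones, against 1.38 and 1.55 in PF-derived clones. In mouse 2 it was at 1.93, 1.99 and 2.16 in blood-derived clones, against 1.19, 1.40 and 1.64 in PF-derived clones. Neither mouse had an overlap, and in chimera 2 the groups met at their ends, with 1.65, 1.79 and 1.87 in blood-derived clones, against 1.304, 1.467 and 1.692 in TTF-derived clones. The Shmt2 differences were 0.38, 0.59 and 0.31 in mouse 1, mouse 2 and chimera 2, and those of Slc3a2 were 0.37, 0.30 and 0.17. The Shmt2 interaction had an adjusted p of 0.0456, and of 0.0727 without iPSC-46. Ddit3 differed by -0.45 in mouse 2 (adjusted p = 0.00132), by -0.09 in chimera 2 and by -0.003 in mouse 1. Its interaction had an adjusted p of 0.0793, and of 0.0161 without iPSC-46. Of all genes, 12.6% passed in mouse 1, 41.1% in mouse 2 and 36% in chimera 2. The fibroblast list averaged 1.79 to 2.14 in the blood-derived groups of mouse 1, against 2.36 in its PF-derived group, 1.49 to 1.55 against 2.86 in mouse 2, and 1.35 to 1.47 against 2.30 in chimera 2.

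**Figure D2:**
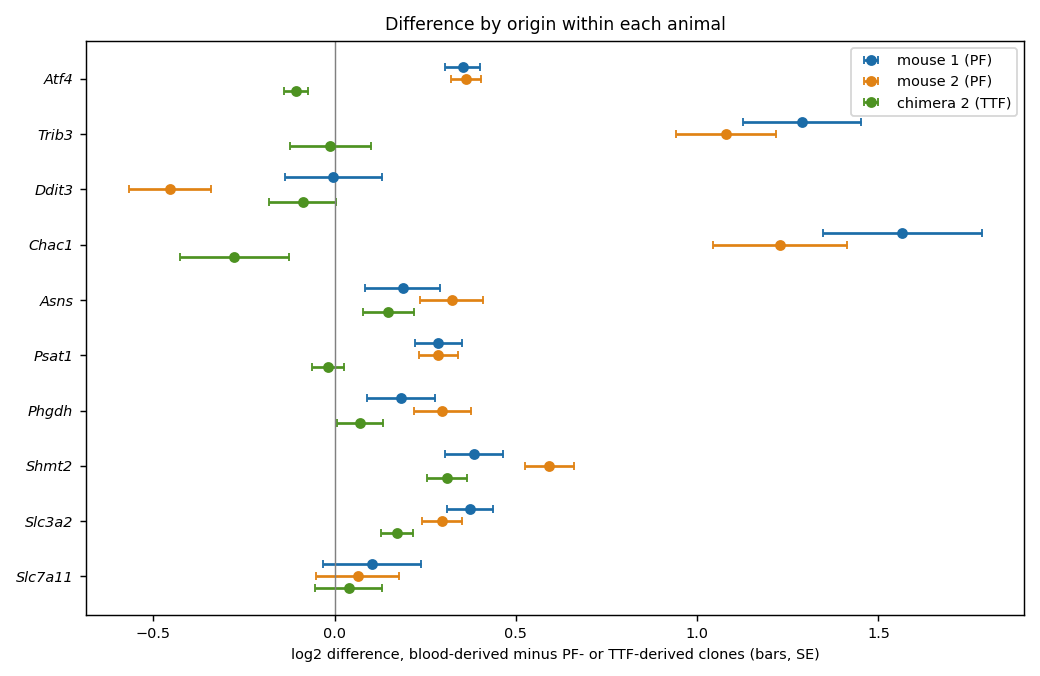
Log2 difference between blood-derived and PF- or TTF-derived clones within each animal, with its SE, for the 10 genes. Trib3 lies at 1.29 and 1.08 in the mice and at -0.01 in chimera 2, while Shmt2 and Slc3a2 lie above 0 in all 3 animals.

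Among cell types of origin, 8 of 10 genes differed in the test of any difference, against 38% of all genes, and Atf4 (adjusted p = 0.0545) and Slc7a11 did not pass. Leaving out iPSC-34 lowered the count to 4 of 10, against 34.5% of all genes, and leaving out iPSC-19 lowered it to 5, against 36.8%. Between animals 7 of 10 genes differed, against 44.9% of all genes, with Psat1, Phgdh and Slc7a11 not passing. By the group means of Trib3, the 3 blood-derived groups of mouse 1 were at 1.32 to 1.38, those of mouse 2 at 0.98 to 1.17, those of chimera 2 at 0.30 to 0.49, the TTF group at 0.42, ESC at 0.19, the PF groups at 0.07 and 0.00 and the MEF group at -0.12. Neighbouring groups in this order overlapped, except that the lowest HSC-derived clone of mouse 2, at 0.80, lay above the highest GMP-derived clone of chimera 2, at 0.61. No gene of the 10 differed between granulocyte-derived and HSC-derived clones (0 of 10, against 0% of all genes). The differences ran from -0.12 (Chac1) to 0.11 (Ddit3), and 390 of all genes and 0 of the 10 had an unadjusted p under 0.05 in limma.

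Among other genes of the pathway, those that passed between blood and fibroblast origin were all higher in blood-derived clones in 4 lists, of enzymes, transporters, synthetases and further Atf4 targets, against 28.1% of all genes higher and 21.6% lower. Of 7 measured enzymes of serine, glycine, proline and folate metabolism, 6 were higher in blood-derived clones. They included Gpt2, which makes alanine, at 0.92, and Aldh18a1, which starts proline synthesis, at 0.82. Psph, the last enzyme of serine synthesis, was 0.52 higher. Of 7 amino acid transporters 5 were higher, among them the glycine transporter Slc6a9 at 0.73 and the neutral amino acid transporter Slc1a5 at 0.65. Of 14 aminoacyl-tRNA synthetases 11 were higher, led by Yars at 0.45, Nars at 0.37 and Iars at 0.36. Of 9 further Atf4 targets 5 were higher, including Stc2 at 0.68 and Ddit4 at 0.52. These are means over animals that differed: the interaction with animal passed for 5 of 7 enzymes, 5 of 7 transporters, 7 of 14 synthetases and 7 of 9 further targets, and for each gene named here, against 20.7% of all genes.

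Of 10 measured eIF2 alpha kinases and Atf4 regulators 5 were higher and 3 lower. Nupr1 was at 0.54, the amino acid sensor Eif2ak4 at 0.38 and the heme-regulated kinase Eif2ak1 at -0.31. Of 21 ER chaperones and Xbp1 or Atf6 targets 7 were higher and 5 lower, and their median difference was -0.04. The oxidase Ero1a was at 0.80 and the co-chaperone Dnajb11 at -0.41. Of 11 Nrf2 and glutathione genes 1 was higher and 2 lower, with Srxn1 at -0.50. The interaction with animal passed for 4 of the 10 kinases and regulators, 5 of the 21 ER genes and 2 of the 11 Nrf2 genes. Nupr1, Eif2ak1 and Ero1a were among them, and 20.7% of all genes passed. Because these lists were chosen with earlier results known, the counts describe them and test nothing about the lists themselves.

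Against ESC, no gene of the 10 passed in all 48 iPSC clones (0 of 10, against 4.94% of all genes). Ddit3 came nearest, at 1.02, 1.70 and 2.79 in iPSC, against 2.06, 2.50, 2.55 and 2.03 in the 4 ESC, a difference of -0.54 (adjusted p = 0.0581). The ranges overlapped, and the MEF-derived clones, at 1.70, 2.56 and 2.79, had a median above the highest ESC. With those clones left out, the Ddit3 difference was -0.63 (adjusted p = 0.000293), and 19.3% of all genes passed. Trib3 averaged 0.48 higher in iPSC without passing (adjusted p = 0.314), and passed at 0.49 (adjusted p = 0.00213) where each origin group had equal weight. In that setting 3 of 10 genes passed, adding Ddit3 at -0.57 and Chac1 at 0.36, as did 25.7% of all genes. With animal as a random block 0 of 10 genes and 0 of all genes passed, with adjusted p = 0.8645 for Trib3 and 0.6213 for Ddit3 at an estimated correlation of 0.25.

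The MEF-derived clones of chimera 1 were also set against the same 4 ESC arrays alone. In limma 0 of 10 genes passed, as did 0 of 11807 genes (997 had an unadjusted p under 0.05, 2 of them among the 10). Chac1 was at -0.61, -0.23 and -0.13 in MEF-derived clones (lowest, median, highest), against 0.08, 0.09, 0.14 and 0.38 in ESC, with no overlap (difference -0.48, unadjusted p = 0.0011, adjusted p = 0.239). ESC-4 was the highest of the 4 ESC for 9 of the 10 genes, and its fibroblast list mean of 0.72 was the lowest of the 4.

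Against their donor lines, no gene of the 10 passed in NT-ESC (0 of 10, against 0.0593% of all genes). In limma 4 of the 10 had an unadjusted p under 0.05, as did 4824 of all 11807 genes. The subclones split by donor, with NT-7 (from iPSC-7) and NT-8 and NT-9 (from iPSC-15) far from their donors for most genes. Psat1 was 4.02 in NT-7, against 5.64 in iPSC-7, and 4.15 and 4.76 in NT-8 and NT-9, against 5.82 in iPSC-15. In the 3 subclones of Adeno-2 it was 5.59, 5.60 and 5.58, against 5.77 in Adeno-2. Phgdh was 0.18 in NT-7, against 2.61 in iPSC-7, the lowest value of the 59 lines. In NT-8 and NT-9 it was 1.33 and 1.42, against 2.58 in iPSC-15, and in the Adeno-2 subclones 2.33, 2.31 and 2.40, against 2.78 in Adeno-2.

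Chac1 moved the other way, at 2.56 in NT-7, against 1.46 in iPSC-7, and at 2.35 and 1.80 in NT-8 and NT-9, against 1.52 in iPSC-15. Ddit3 was 2.80 in NT-7, against 1.72 in iPSC-7, and 3.18 and 3.28 in NT-8 and NT-9, against 2.06 in iPSC-15, which were the highest Ddit3 values of all lines. Atf4 was 3.57 in NT-7, against 5.11 in iPSC-7, and 4.05 and 4.79 in NT-8 and NT-9, against 5.14 in iPSC-15. Without these 3 arrays, which stood apart over all genes, and their donors, 3 subclones remained against the 1 Adeno-2 array, where Ddit3 differed by 0.43 and Phgdh by -0.44. In limma 2 of 10 genes, these, and 17.3% of all genes passed there, but the fit has no spread between donor arrays and assumes that the lone array varies as the subclones do. Without the Adeno-2 array, 7 of 10 passed and so did 53.5% of all genes. Against the ESC arrays used above, 0 of 10 genes passed (0.00847% of all genes), and without the 3 arrays 1 gene did, Trib3, at 0.65 (adjusted p = 0.0248, 3.96% of all genes).

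**Figure D3:**
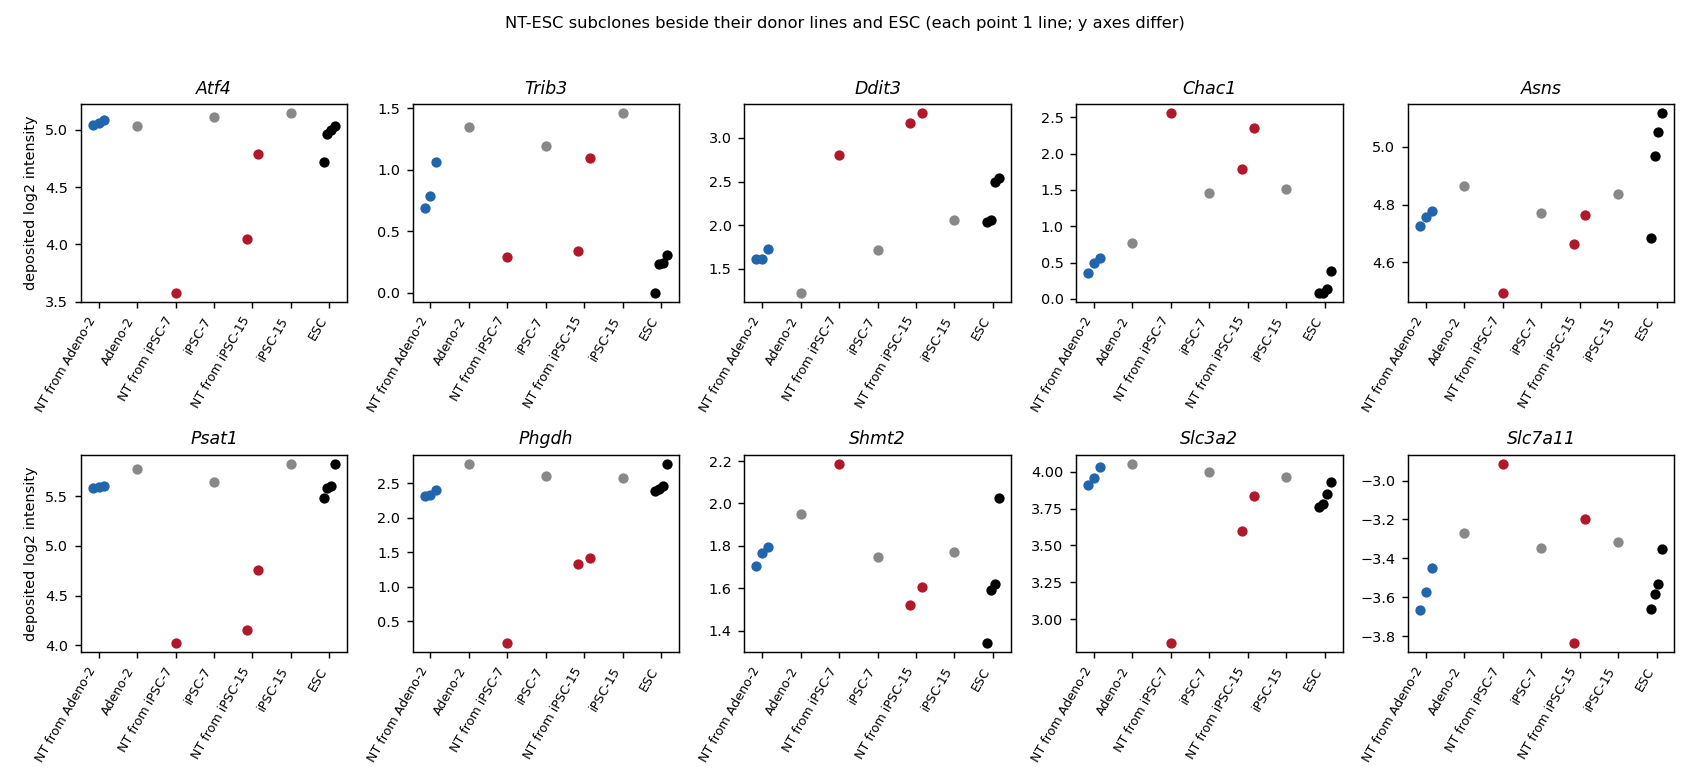
Deposited log2 intensity of the 10 genes in NT-ESC subclones beside their donor lines, with ESC at the right, 1 point per line. NT-7, NT-8 and NT-9 lie below their donors for Psat1, Phgdh and Atf4 and above them for Ddit3 and Chac1, while the Adeno-2 subclones lie nearer to Adeno-2.

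Across the 48 iPSC clones the genes were compared with each other by their deviations from the mean of their own origin group, which removes differences between origins. Of 45 pairs, 18 passed (Pearson r, 100000 permutations within origin groups, adjusted over the 45 pairs), all with positive r, and the median r was 0.39. The strongest pair was Psat1 and Phgdh, with r = 0.81 and Spearman's rho = 0.61 (adjusted permutation p = 0.0009), and r = 0.68 without the 2 clones farthest from the median. Trib3 and Chac1 had r = 0.75 and rho = 0.60 (adjusted permutation p = 0.00247, r = 0.59 without the 2 clones). Trib3 and Psat1 had r = 0.74 and rho = 0.58 (adjusted permutation p = 0.0018, 0.58 without the 2), and Chac1 and Slc7a11 had r = 0.74 and rho = 0.50 (adjusted permutation p = 0.00189, 0.52 without the 2). Within mouse 1, mouse 2, chimera 2 and chimera 1, in that order, r was 0.68, 0.71, 0.78 and 0.91 for Psat1 and Phgdh, and 0.42, 0.53, 0.89 and 0.49 for Trib3 and Chac1. For Trib3 and Psat1 it was 0.62, -0.12, 0.88 and 0.97, and for Chac1 and Slc7a11 it was 0.09, 0.74, 0.90 and 0.13. Psat1 and Phgdh thus had an r of at least 0.68 in each animal with all clones in, and Trib3 and Psat1 did not hold in mouse 2. The chimera 2 values include iPSC-46, without which no pair passed within that animal. The chimera 1 values rest on 6 clones, of which iPSC-5 was the highest for Trib3, Psat1 and Phgdh, and no pair passed within chimera 1. Atf4 passed with Chac1, at r = 0.44, and with Slc7a11, at r = 0.50, and not with Trib3, at r = 0.39 (adjusted permutation p = 0.0789). With the mean of the Atf4 probe sets neither call remained, and r was -0.024 with Chac1 and 0.018 with Slc7a11. Ddit3 passed with no other gene, and its values ran from -0.42 with Shmt2 to 0.34 with Atf4.

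The count depended on 1 clone. In iPSC-46, TTF-derived from chimera 2, all 10 genes were the highest of the 6 TTF-derived clones, as were 28.6% of all genes. Its Trib3 was 1.35, against 0.13 to 0.40 in the other TTF-derived clones, and its Chac1 was 1.72, against 0.03 to 0.54. Its fibroblast list mean of 2.64 was the highest of the 6 and its pluripotency list mean of 3.86 the lowest, while its array correlated with the others at 0.983; their part in its values was not tested. Without iPSC-46, 6 of 45 pairs passed and the median r was 0.21: Psat1 and Phgdh at 0.77, Trib3 and Psat1 at 0.73, Phgdh and Shmt2 at 0.64, Trib3 and Slc3a2 at 0.59, Chac1 and Slc3a2 at 0.54, and Chac1 and Slc7a11 at 0.53. Trib3 and Chac1 were then at 0.48 (adjusted permutation p = 0.0707). Within mouse 1 no pair passed, within mouse 2 one did (Chac1 and Atf4, r = 0.88), within chimera 2 11 did and within it without iPSC-46 none did, with 13, 14, 15 and 14 clones.

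**Figure D4:**
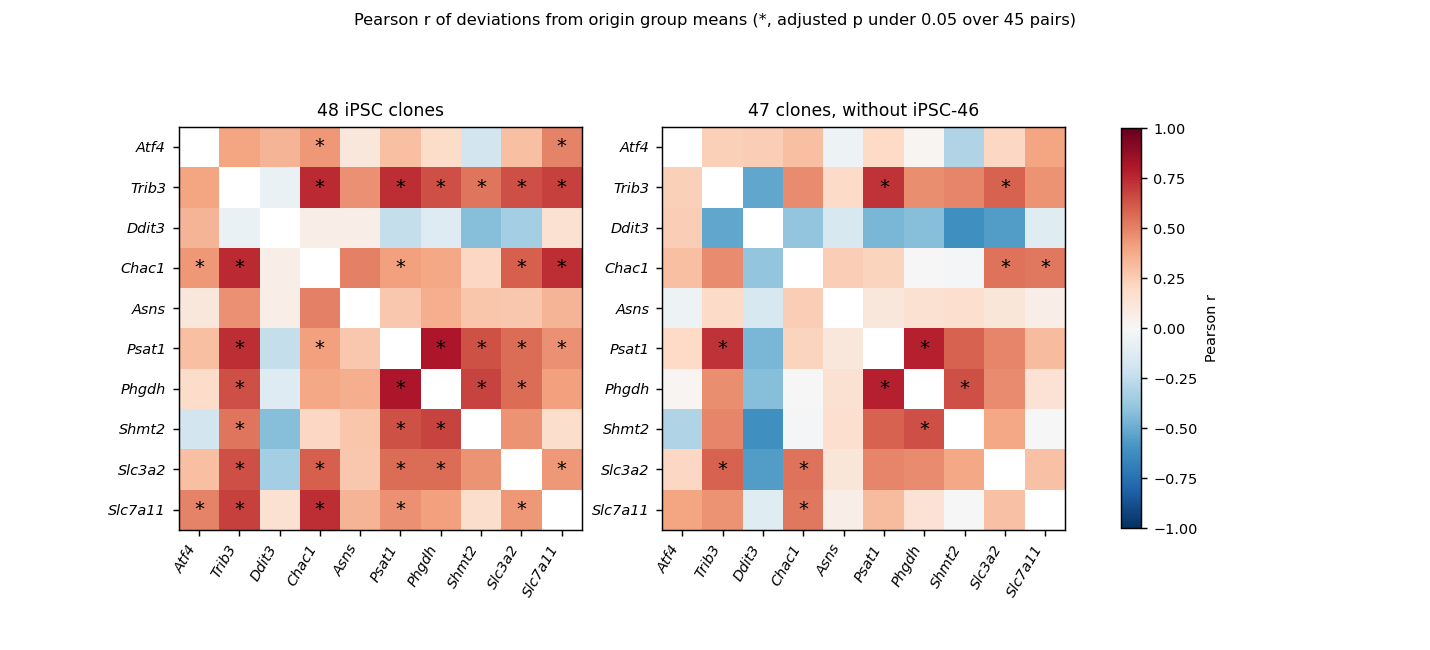
Pearson r of each pair of the 10 genes over deviations from origin group means, in 48 iPSC clones (left) and without iPSC-46 (right), with a star where the adjusted p is under 0.05. The star count is 18 pairs on the left and 6 on the right, and Ddit3 has none in either.

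**Figure D5:**
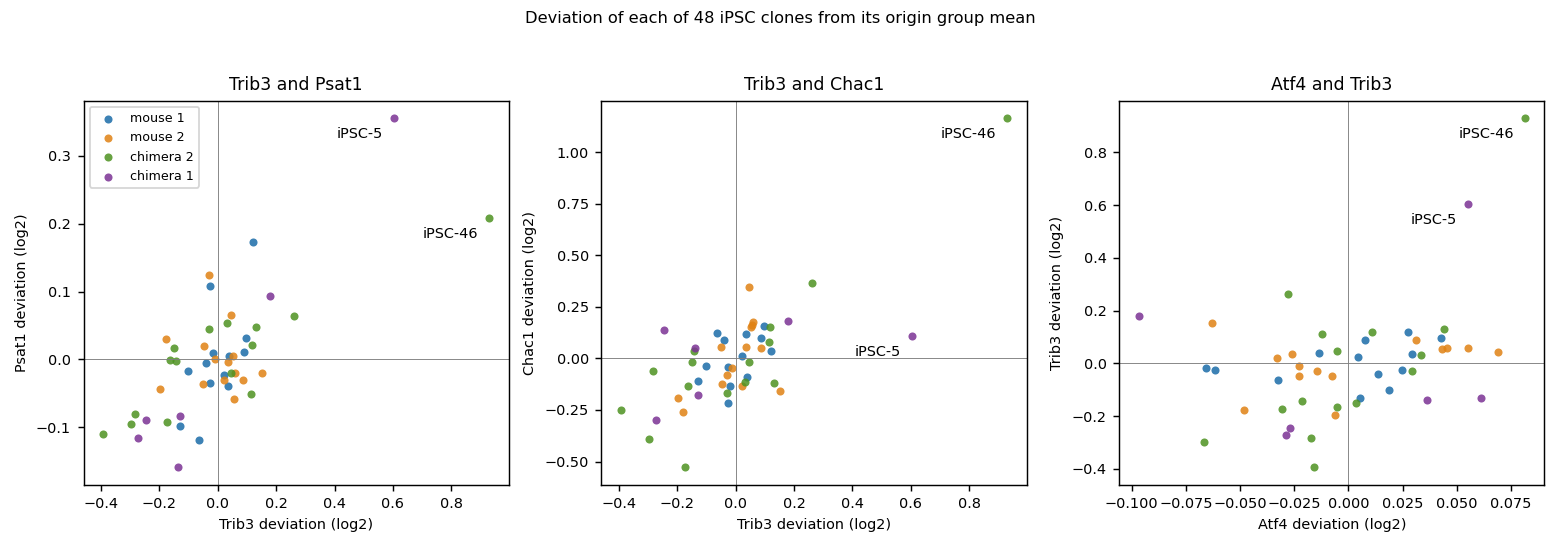
Deviation of each iPSC clone from its origin group mean for Trib3 against Psat1, Trib3 against Chac1, and Atf4 against Trib3, coloured by animal. iPSC-46 lies far from the others in the middle plot, iPSC-5 is the highest clone for Psat1 at a deviation of 0.36, and Atf4 spans a narrow range.

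Atf4 varied least of the 10 genes within origin groups, with a pooled SD of 0.046, and only 0.330% of all genes varied less. Its values here are those of its brightest probe set, which lay above 97.3% of all probe sets. The dimmer Atf4 probe set correlated with it at -0.62. Chac1 varied most, at 0.28, a spread that exceeded 94.5% of genes, followed by Trib3 at 0.25 and Ddit3 at 0.23, against a median of 0.15. Without iPSC-46 Ddit3 varied most, at 0.21, with Chac1 at 0.19 and Trib3 at 0.18. Over the 13 origin group means, which share animals and are given as a description, Atf4 was close to Trib3 (r = 0.92) and Chac1 (r = 0.89), and Trib3 to Chac1 (r = 0.91), while Ddit3 was at -0.19 with Atf4.

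Each gene was then used as the predictor of all other genes, with origin group as a term. For Trib3, 6 of the other 9 genes had a positive slope that passed, against 4.29% of all genes. The same 6 passed without iPSC-46, where 7.98% of genes did. In the permutation test of pairs without iPSC-46, only Psat1 and Slc3a2 of these 6 passed with Trib3. For Chac1, 4 of 9 genes had a positive slope that passed (2.96% of genes) and without iPSC-46 none did (0.712%). For Psat1 5 passed (8.43%), for Phgdh 4 (5.31%), for Slc3a2 4 (5.73%), for Shmt2 3 (6.73%), for Asns 2 (9.38%) and for Slc7a11 2 (0.0932%). Without iPSC-46 the counts were 4 for Psat1 (11.2% of genes), 4 for Phgdh (8.86%), 4 for Slc3a2 (7.42%) and 3 for Shmt2 (8.45%). They were 0 for Asns (11%) and 0 for Slc7a11, where 0% of all genes passed. Over the 48 clones none passed for Ddit3 (5.03%) or for Atf4 (0.0508%). No negative slope on Ddit3 passed for the 9 genes over 48 clones (5.9% of all genes). Without iPSC-46, Trib3, Shmt2 and Slc3a2 had one, 3 of 9 genes against 6.17% of all genes, and the lowest r of Ddit3 was -0.61, with Shmt2 (adjusted permutation p = 0.0775). With all clones in, r of Ddit3 and Shmt2 was 0.03, -0.03, 0.57 and -0.96 within mouse 1, mouse 2, chimera 2 and chimera 1. In the same order it was 0.59, -0.02, 0.61 and -0.87 with Trib3, and 0.35, -0.44, 0.39 and -0.88 with Slc3a2. Leaving out the MEF-derived iPSC-5 and iPSC-6 of chimera 1 gave -0.11 for Ddit3 and Shmt2.

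The genes most like Trib3 over the 48 clones were Aars, an alanyl-tRNA synthetase, at r = 0.88, Aldh18a1 at 0.86, Pck2, a mitochondrial gluconeogenic enzyme, at 0.85, Yars at 0.78 and Slc6a9 at 0.78. Without iPSC-46 they were at 0.85, 0.78, 0.80, 0.64 and 0.65. The genes most like Slc3a2 included Aldh18a1 and the glycyl-tRNA synthetase Gars, both at 0.81, and the gene most like Chac1 was Iars, at 0.79. Those most like Atf4 were Ptdss2 at 0.67, Mau2 at 0.66 and Dguok at 0.65, and those most like Ddit3 were Hexa at 0.82, Grina at 0.79 and Cd47 at 0.77. The likeness is a Pearson r over clones whose arrays share processing, and it is given as a description.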

How the data were processed

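The value table deposited by the authors covers 22626 probe sets in log2 intensity. The method of background correction and summarisation is not given in the sources used here, and the base of 2 was inferred from the range. Probe sets were named through the platform's gene annotation: 18003 name 1 gene, 287 several and 4336 none. Where a gene had several, its brightest probe set on average was used. The genes and lists were chosen with earlier results of these data known. Comparisons were fitted with limma 3.58.1 in R 4.3.3 over all 11807 genes with Benjamini-Hochberg adjustment and a threshold of 0.05. The blood and fibroblast comparisons used 42 clones with animal as a term, and the NT-ESC comparison with donors used the donor as a block. Pair correlations used Python 3.11.15 and scipy 1.17.1, with 100000 permutations within origin groups, and 1e-05 is the smallest p they can give. Named genes are the 10 members, the 5 genes most like each, and up to 4 members past the threshold of each pathway list. The pathway lists and promoter windows were matched by symbol to RefSeq tables of GRCm38.p6. Alternatives were quantile normalization, a filter under the 40th percentile of level, the mean of probe sets, eBayes with trend and robust settings, other weights or blocks, leaving out lines and animals, and, chosen after seeing the data, fits leaving out the 3 NT-ESC arrays that stood apart, without MEF-derived clones, without iPSC-32 or iPSC-46, and with the fibroblast list mean or array SD accounted for. The scripts were tested on simulated data with known differences.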

Additional observations from a re-analysis of the deposited data

Results flagged for a closer look

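In 7 of 70 combinations of a gene and a group of 4 to 10 lines, 1 line lay far from the others of its group, where chance gives about 1 in 20. The clone iPSC-46 accounts for 5 of them among the 6 TTF-derived clones. Its Trib3 was 1.353, against 0.127 to 0.395 in the others, its Chac1 was 1.719, against 0.027 to 0.536, and its Ddit3 was 2.258, against 1.575 to 1.717. Its Phgdh was 2.913, against 2.363 to 2.48, and its Slc7a11 was -2.869, against -3.743 to -3.467. The fibroblast list mean of iPSC-46 was the highest of the 6, at 2.64, and the cause of its values was not tested.

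The other lines apart from their groups were iPSC-14, GMP-derived from mouse 1, with Ddit3 at 1.938, against 1.639 to 1.681, and iPSC-28, GMP-derived from mouse 2, with Psat1 at 5.939, against 5.757 to 5.785.

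The difference between blood-derived and fibroblast-derived clones varied between animals in limma's interaction test for Atf4 (adjusted p = 3.04e-08), Chac1 (adjusted p = 3.67e-06), Trib3 (adjusted p = 5.16e-06), Psat1 (adjusted p = 0.00153) and Shmt2 (adjusted p = 0.0456). The fibroblast cells were labelled PF in the mice and TTF in chimera 2, so label and animal cannot be told apart.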

How the results depend on the processing

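No paired analysis was possible because of what the replicate numbers are, names of lines with no match across groups; the ties that the labels do give, donor line and animal, were terms of the donor and origin fits. Of 10 genes, the count between blood and fibroblast origin was 6 without mouse 1 (45.2% of all genes) and 4 without mouse 2 (36.7%). It was 7 where the clones of an origin and animal were averaged first (36.4%). With the fibroblast list mean as a covariate it was 4, and 1820 of all genes passed, against 5870 without the covariate. The count for any cell type ran from 4 to 9 when 1 clone was left out, with 34.5% to 39.5% of all genes. For all iPSC against ESC it was 0, and became 1 without genes under the 40th percentile, 3 with equal weights, 1 without MEF-derived clones and 0 to 1 when 1 line was left out. All genes called there were 583, against 3039 with equal weights, 2280 without MEF-derived clones, 380 with the covariate, 0 with animal as a random block, 5 without ESC-3 and 1112 without ESC-1. NT-ESC against donors gave 2 without the arrays NT-7, NT-8 and NT-9 (2042 of all genes, against 7) and 0 to 7 when 1 line was left out (0 to 6321 of all genes), and NT-ESC against ESC gave 1 (468 of all genes, against 1). The number of coupled pairs was 36 without centring, 0, 1, 11 and 0 within mouse 1, mouse 2, chimera 2 and chimera 1, 6 without iPSC-46, 0 within chimera 2 without it, and 6 to 21 when 1 clone was left out. Causes were not tested.

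Some directions turned. With the mean of probe sets Atf4 was at -0.0099 in granulocyte against HSC origin, 0.062 in all iPSC against ESC, 0.0041 in MEF-derived iPSC against ESC, 0.0080 in NT-ESC against donors and 0.22 in NT-ESC against ESC, Shmt2 was at 0.32 in NT-ESC against donors, and r of Chac1 and Atf4 was -0.024. With quantile normalization Shmt2 was at 0.14 in NT-ESC against donors and Slc7a11 at -0.11 in NT-ESC against ESC. Without those 3 arrays, NT-ESC against donors gave Chac1 at -0.30 and Atf4 at 0.033, and NT-ESC against ESC gave Ddit3 at -0.63, Slc7a11 at -0.032, Slc3a2 at 0.14 and Atf4 at 0.13. Within mouse 1, r was -0.035 for Trib3 and Slc7a11, -0.19 for Chac1 and Psat1 and -0.051 for Psat1 and Slc7a11. Within mouse 2 it was -0.12 for Trib3 and Psat1, -0.095 for Trib3 and Shmt2 and -0.058 for Psat1 and Shmt2. It was -0.26 for Chac1 and Atf4 within chimera 1, and -0.094 for Phgdh and Slc3a2 within chimera 2 without iPSC-46.

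Leaving out 1 line at a time gave these ranges. Granulocyte against HSC origin ran from -0.021 to 0.11 for Trib3, -0.027 to 0.0099 for Asns, -0.017 to 0.033 for Psat1 and -0.0044 to 0.031 for Atf4. All iPSC against ESC ran from -0.00010 to 0.23 for Shmt2. MEF-derived iPSC against ESC ran from -0.033 to 0.18 for Ddit3, -0.12 to 0.019 for Asns, -0.062 to 0.077 for Psat1, -0.16 to 0.067 for Shmt2 and -0.054 to 0.014 for Slc3a2. NT-ESC against donors ran from -0.20 to 0.069 for Shmt2 and -0.25 to 0.072 for Slc7a11. NT-ESC against ESC ran from -0.098 to 0.24 for Ddit3, -0.013 to 0.17 for Slc7a11 and -0.20 to 0.037 for Slc3a2. With 1 array per line, the number of lines limits the precision, and Slc7a11 was read near the bottom of the array.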

Other observations

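The wider lists gave the following r with the 10 genes over deviations of the 48 iPSC clones, as a description. All of them include iPSC-46, and they were not computed without it. In iPSC-46, 78.6% of the synthetases and 71.4% of the enzymes listed here were the highest of the 6 TTF-derived clones, against 28.6% of all genes. Of the 100 genes most like Trib3, 22 were still among its 100 without that clone. Trib3 had a median r of 0.50 with 14 aminoacyl-tRNA synthetases, and 8 of them had a positive slope that passed in limma, against 4.29% of all genes. It had a median r of 0.56 with 7 enzymes of serine, glycine, proline and folate metabolism, of which 5 passed. None of 21 ER chaperones and Xbp1 or Atf6 targets had a positive slope on Trib3 that passed, and 2 had a negative one, against 1.91% of all genes. Slc3a2 had a median r of 0.62 with the synthetases, of which 10 passed, against 5.73% of all genes.

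Ddit3 had a median r of 0.42 with 16 fibroblast and feeder genes, of which 7 had a positive slope that passed (5.03% of all genes), and 3 of the 7 serine, glycine, proline and folate enzymes had a negative one (5.9% of all genes). Shmt2 had a median r of -0.46 with the fibroblast and feeder genes, of which 9 had a negative slope that passed, against 7.18% of all genes.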
